A study of Mus musculus with 9 samples.

Results

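The genes described here carry out fatty acid oxidation or build and maintain peroxisomes. They were taken by gene symbol from the table of expression values: the acyl-CoA synthetases of long-chain fatty acids, the carnitine acyltransferases, the acyl-CoA dehydrogenases and oxidases, the enzymes of the later steps, the electron transfer flavoproteins, the peroxins (the proteins that assemble peroxisomes), and the nuclear receptors and coactivators of the PPAR family. The symbol rule itself uses no measured value, but the genes were chosen with earlier results of these data known. Of 65 such symbols in the GENCODE M21 annotation, 59 were among the 14477 genes of the table. Acaa1b, Acox2, Cpt1b, Eci3, Pex13-ps and Pparg were not analysed here.

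The libraries compare cells of 2 regions of the adult mouse brain in which neurons are still made. The 5 DG libraries came from the hippocampal dentate gyrus, whose precursors give rise to granule neurons, and the 4 SVZ libraries from the subventricular zone, whose precursors give rise mainly to interneurons of the olfactory bulb. All mice were of the strain B6.Cg-Tg(Nes-EGFP)1Yamm, a line in which regulatory sequence of Nestin drives a green fluorescent protein. They were untreated and in standard housing, and their age is not given in the sources used here. Cells were sorted by fluorescence, so each library holds every cell type in which the transgene is active. The labels do not say whether a library came from 1 animal or a pool, and the p-values therefore rest on differences among libraries that may be partly technical.

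Fatty acids are burned in steps. A synthetase attaches coenzyme A to the fatty acid, the carnitine shuttle moves the long acyl chain into the mitochondrion, and a cycle of dehydrogenation, hydration, a further dehydrogenation and thiolysis then shortens it. Very long and branched chains are first shortened in peroxisomes, where an oxidase that makes hydrogen peroxide takes the place of the first dehydrogenase. In the adult brain this oxidation is known mainly from astrocytes and from quiescent neural stem cells, and PPAR receptors, which bind fatty acids, drive many of its genes.

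Most of these genes were higher in DG. Expression is given as log2 CPM, the log2 of CPM (reads of a gene relative to all reads of its library, scaled to a common total) after adding a prior of 1 read. Of the 59 genes, 39 were higher in DG, 3 were lower and 17 did not pass the test (limma with a mean-variance trend, Benjamini-Hochberg adjusted p under 0.05 over all 14477 genes). Between these regions most genes differ: 66.6% of all genes were called, 32.9% higher in DG and 33.7% lower, against 71.2%, 66.1% and 5.1% of the 59. The share called at all was thus near that of the whole table, while the directions were divided differently. The median log2 fold change (DG minus SVZ) was 0.70 over the 59 genes and -0.075 over all genes. A difference of at least 2-fold was called for 22 of them (37.3%), close to the 35.1% of all genes, and in each of the 22 DG was higher. All DG libraries lay above all SVZ libraries in 36 genes and below them in 3, together 66.1% of the 59 against 58% of all genes (29.7% above and 28.3% below). Ppara, Ppard, Ppargc1b and Pex5l are among the 39 and the 22, and all but Pex5l among the 36. These 4 are in the table only through DG libraries, which in part fixes their direction. Without DG 2, DG 3 and SVZ 1 together, 37 genes were higher and 0 lower by limma, and 2 were lower at an unadjusted p under 0.05. Outside the peroxins and the PPAR genes, 30 of 38 enzymes and flavoproteins were higher in DG (median 0.96). The 4 PPAR genes were also called higher, but 3 of them are in the table only through DG libraries, which in part fixes that direction. Peroxins, the genes that build the organelle, had a median of 0.20, and 10 of 17 did not pass.

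**Figure D1:**
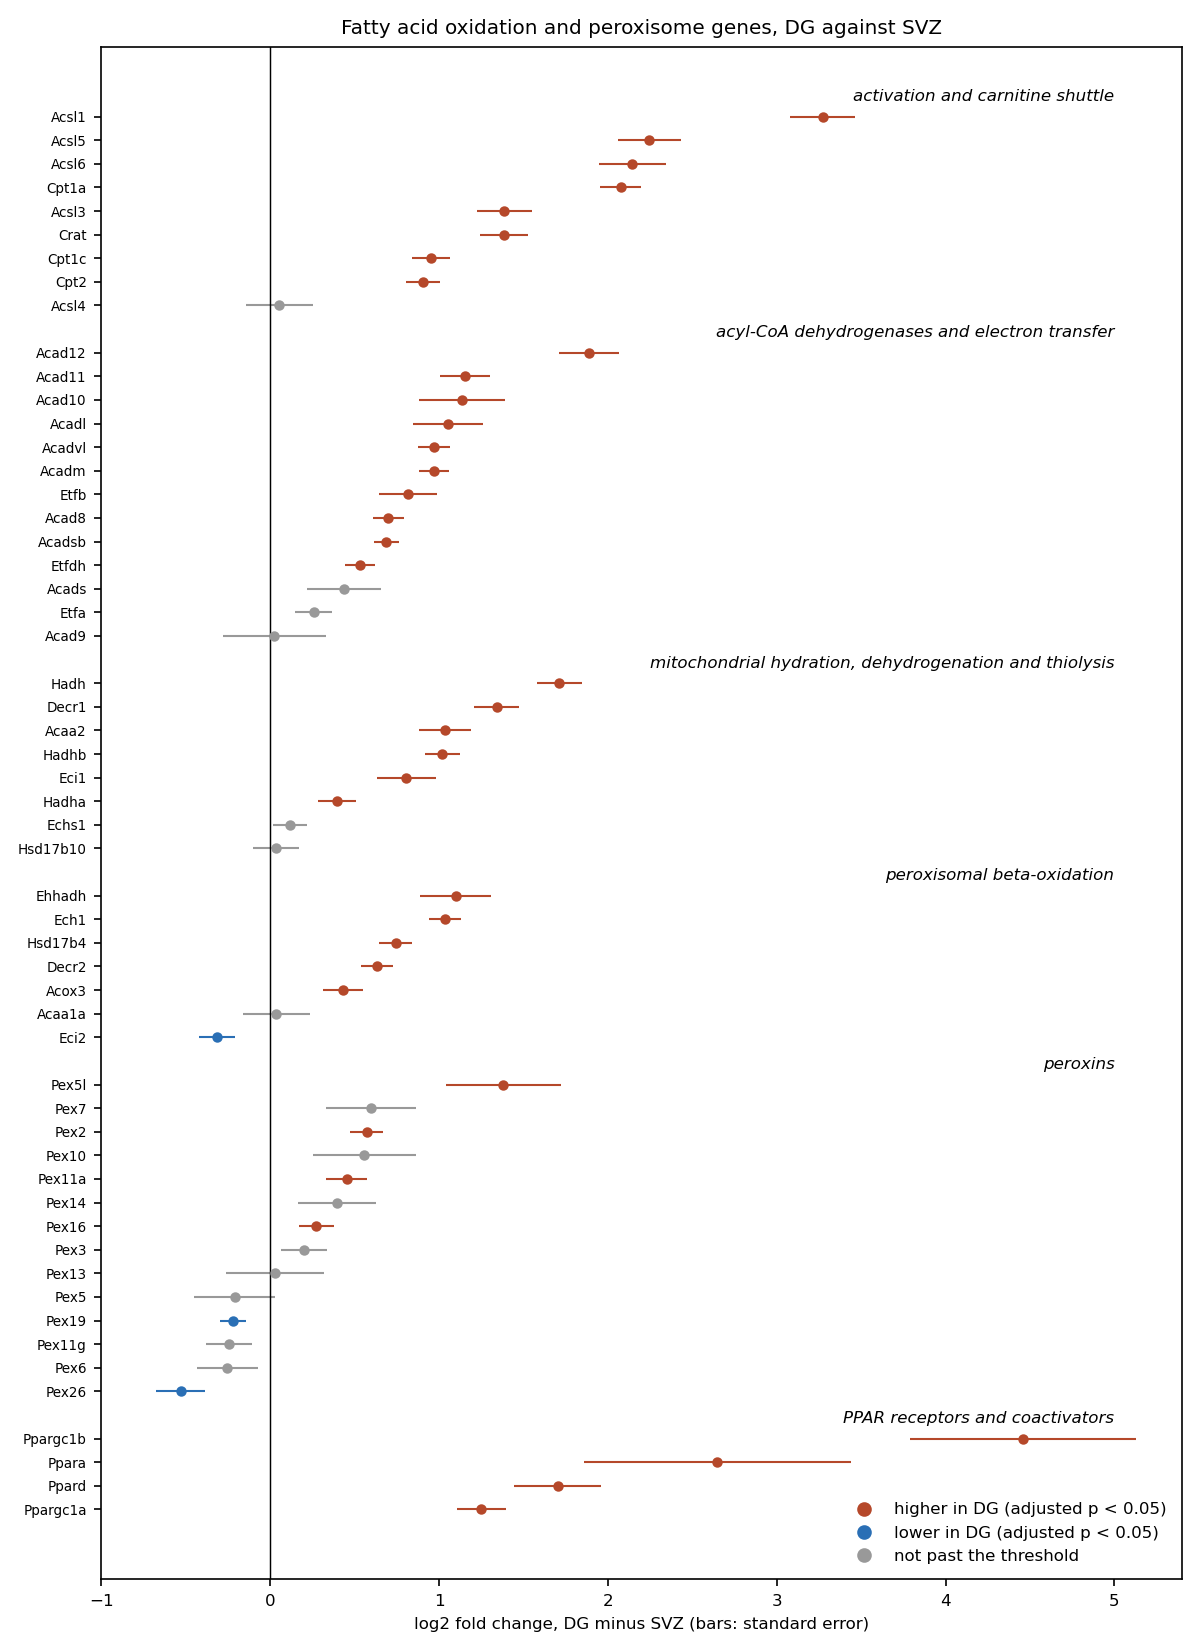
Log2 fold change (DG minus SVZ, x axis) of 55 of the 59 genes, grouped by role, with bars of 1 standard error; colour gives the call at adjusted p under 0.05. Enzymes and PPAR genes lie mostly to the right of 0, up to 4.46 for Ppargc1b, while peroxins scatter around 0 between -0.53 (Pex26) and 1.38 (Pex5l).

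Markers of other cell types differed between the regions in these sorts. The summed level of 12 astrocyte and quiescent stem cell markers was 17007 to 25758 CPM in DG libraries and 1931 to 3623 CPM in SVZ libraries, and 11 of the 12 were higher in DG. The 12 endothelial markers summed to 1202 to 2314 CPM in DG and 11.6 to 69.1 CPM in SVZ, and the 12 pericyte and smooth muscle markers to 5686 to 11667 CPM in DG and 74.9 to 188.1 CPM in SVZ, with every marker of both lists higher in DG. Activated precursor and cell cycle markers went the other way, at 2153 to 2945 CPM in DG and 12255 to 15694 CPM in SVZ (11 of 12 lower in DG), as did neuroblast markers, at 6714 to 9838 CPM in DG and 21892 to 25917 CPM in SVZ (11 of 12 lower). Single neuroblast markers differed widely, with log2 fold changes from -6.22 for Dlx2 to 5.80 for Neurod1, the 1 that was higher in DG. Fibroblast (9 of 10 higher) and oligodendrocyte (8 of 10 higher) markers were mostly higher in DG and the 10 ependymal markers lower, while 6 of 10 microglial and 5 of 10 mature neuron markers did not pass. Some lists share genes: Pdgfra is in the fibroblast and oligodendrocyte lists, and Cspg4 in the pericyte and oligodendrocyte lists. SVZ 1 had the highest endothelial sum of its region (69.1 CPM, against 11.6 to 14.6 CPM in the other SVZ libraries). No listed marker was at 0 in every library of a region. Some markers, however, exceeded 1 CPM in at least 3 libraries of only 1 region, so their direction was in part fixed by that filter. Among them are Kdr, Tie1, Cdh5, Cldn5, Anpep, Myh11, Lum and Hopx through DG, and Dlx2, Foxj1 and Pifo through SVZ. In such bulk samples fewer cells of a type and less RNA per cell cannot be told apart, and the part that cell composition has in the differences below was not tested. Total reads over the table were 33627909 to 41164044 in DG libraries and 31126803 to 32528255 in SVZ libraries.

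**Figure D2:**
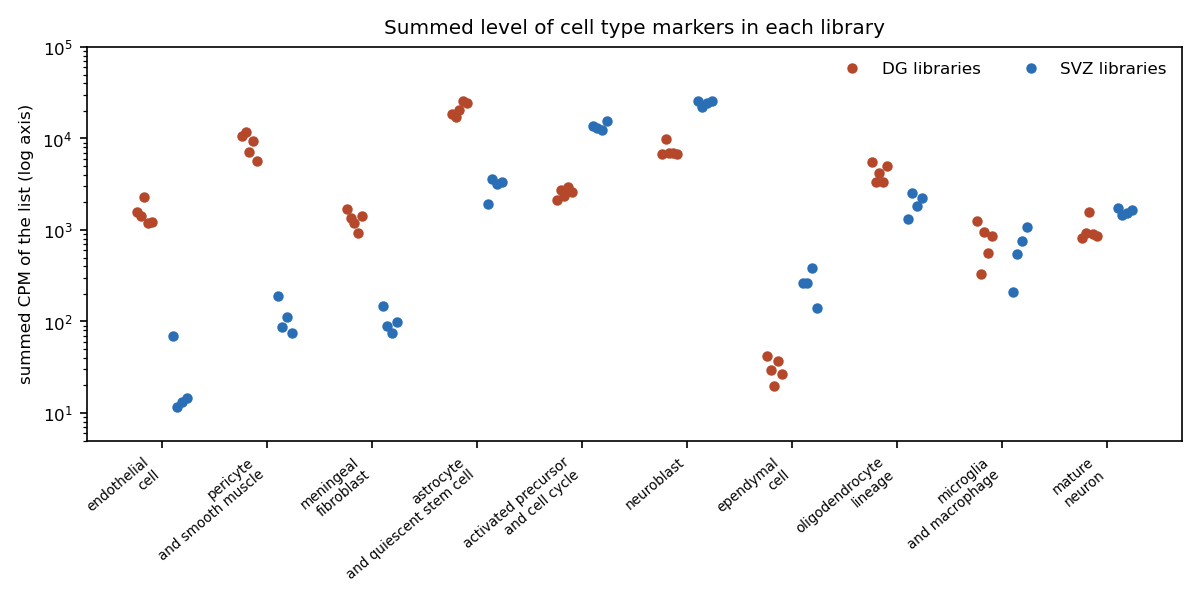
Summed CPM (log axis) of 10 lists of cell type markers in each DG library (red, left of each pair) and SVZ library (blue, right). The endothelial, pericyte, fibroblast and astrocyte sums of the DG libraries lie above those of all SVZ libraries, and the cell cycle, neuroblast and ependymal sums lie below.

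Activation and entry into the mitochondrion differed most among the enzymes: 8 of 9 genes were higher in DG, 6 of them at least 2-fold, with a median log2 fold change of 1.39. The synthetases of long-chain fatty acids carried the widest range. Acsl1 (ENSMUSG00000018796, chromosome 8, 46471037 to 46536051, plus strand), the isoform best known for feeding fat to oxidation in heart and fat tissue, had 7.29, 7.45, 7.03, 7.26 and 6.37 log2 CPM in DG 1 to DG 5, against 3.77, 3.82, 3.71 and 3.94 log2 CPM in SVZ 1 to SVZ 4. The DG libraries were thus 9.66-fold above the SVZ libraries without overlap (log2 fold change 3.27, SE 0.19, adjusted p = 1.36e-07). DG 5 stood lowest, and the order of the DG libraries (DG 2, DG 1, DG 4, DG 3, DG 5 from high to low) was also that of their pericyte marker sums. The 4 SVZ libraries did not follow their pericyte order. This match was picked after the values of many genes and marker lists were seen, and a link was not tested.

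Acsl6, the isoform of brain that favours polyunsaturated chains such as docosahexaenoic acid, had 8.65, 8.47, 8.52, 8.88 and 8.90 log2 CPM in DG 1 to DG 5, against 5.82, 6.86, 6.74 and 6.73 log2 CPM in SVZ 1 to SVZ 4. It was 4.42-fold higher in DG (log2 fold change 2.15, SE 0.20, adjusted p = 3.42e-06), and SVZ 1 lay apart below the other SVZ libraries. Acsl5, an isoform of intestine and liver, had 5.45, 5.08, 5.37, 4.80 and 4.87 log2 CPM in DG 1 to DG 5, against 2.88, 2.75, 3.27 and 2.58 log2 CPM in SVZ 1 to SVZ 4. All DG libraries were above all SVZ libraries (log2 fold change 2.25, SE 0.19, adjusted p = 1.59e-06). Acsl3, which sits on the endoplasmic reticulum and lipid droplets, had 6.77, 6.71, 6.99, 7.13 and 7.24 log2 CPM in DG 1 to DG 5, against 5.30, 5.67, 5.36 and 5.99 log2 CPM in SVZ 1 to SVZ 4. The smallest gap between the regions lay between DG 2 and SVZ 4, and there was no overlap (log2 fold change 1.39, SE 0.16, adjusted p = 1.99e-05). Acsl4, the isoform that prefers arachidonic acid and is known for its role in ferroptosis, did not pass, at 5.44 ± 0.44 in DG and 5.39 ± 0.13 log2 CPM in SVZ (SD, n = 5 and 4; log2 fold change 0.05, adjusted p = 0.82). So 4 of 5 measured synthetase genes were higher in DG, by between 2.62-fold and 9.66-fold.

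All 4 measured enzymes of the carnitine shuttle were higher in DG. Cpt1a (ENSMUSG00000024900, chromosome 19, 3322334 to 3385733, plus strand), the outer membrane enzyme that sets the rate of mitochondrial fat oxidation, had 7.22, 7.03, 7.04, 7.21 and 6.95 log2 CPM in DG 1 to DG 5, against 4.70, 5.25, 5.03 and 5.07 log2 CPM in SVZ 1 to SVZ 4. The lowest DG library lay well above the highest SVZ library, and DG was 4.22-fold higher (log2 fold change 2.08, SE 0.12, adjusted p = 1.21e-07). Cpt1c (chromosome 7, 44959372 to 44974851, minus strand), a paralogue of neurons on the endoplasmic reticulum with little acyltransferase activity, had 7.62, 7.37, 7.82, 7.43 and 7.42 log2 CPM in DG 1 to DG 5, against 6.45, 6.68, 6.73 and 6.47 log2 CPM in SVZ 1 to SVZ 4. The regions did not overlap either, and the fold was 1.94 (log2 fold change 0.95, SE 0.11, adjusted p = 2.43e-05). The log2 ratio of Cpt1a to Cpt1c within a library, not corrected for length, was -0.45 ± 0.21 in DG and -1.57 ± 0.18 in SVZ (SD, n = 5 and 4), and every DG library had the higher ratio. Cpt2, which returns the chain to coenzyme A on the inner membrane, and Crat, the acetyltransferase for short chains, were higher in DG by 0.91 and 1.38 (adjusted p = 1.38e-05 and 7.27e-06, limma).

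**Figure D3:**
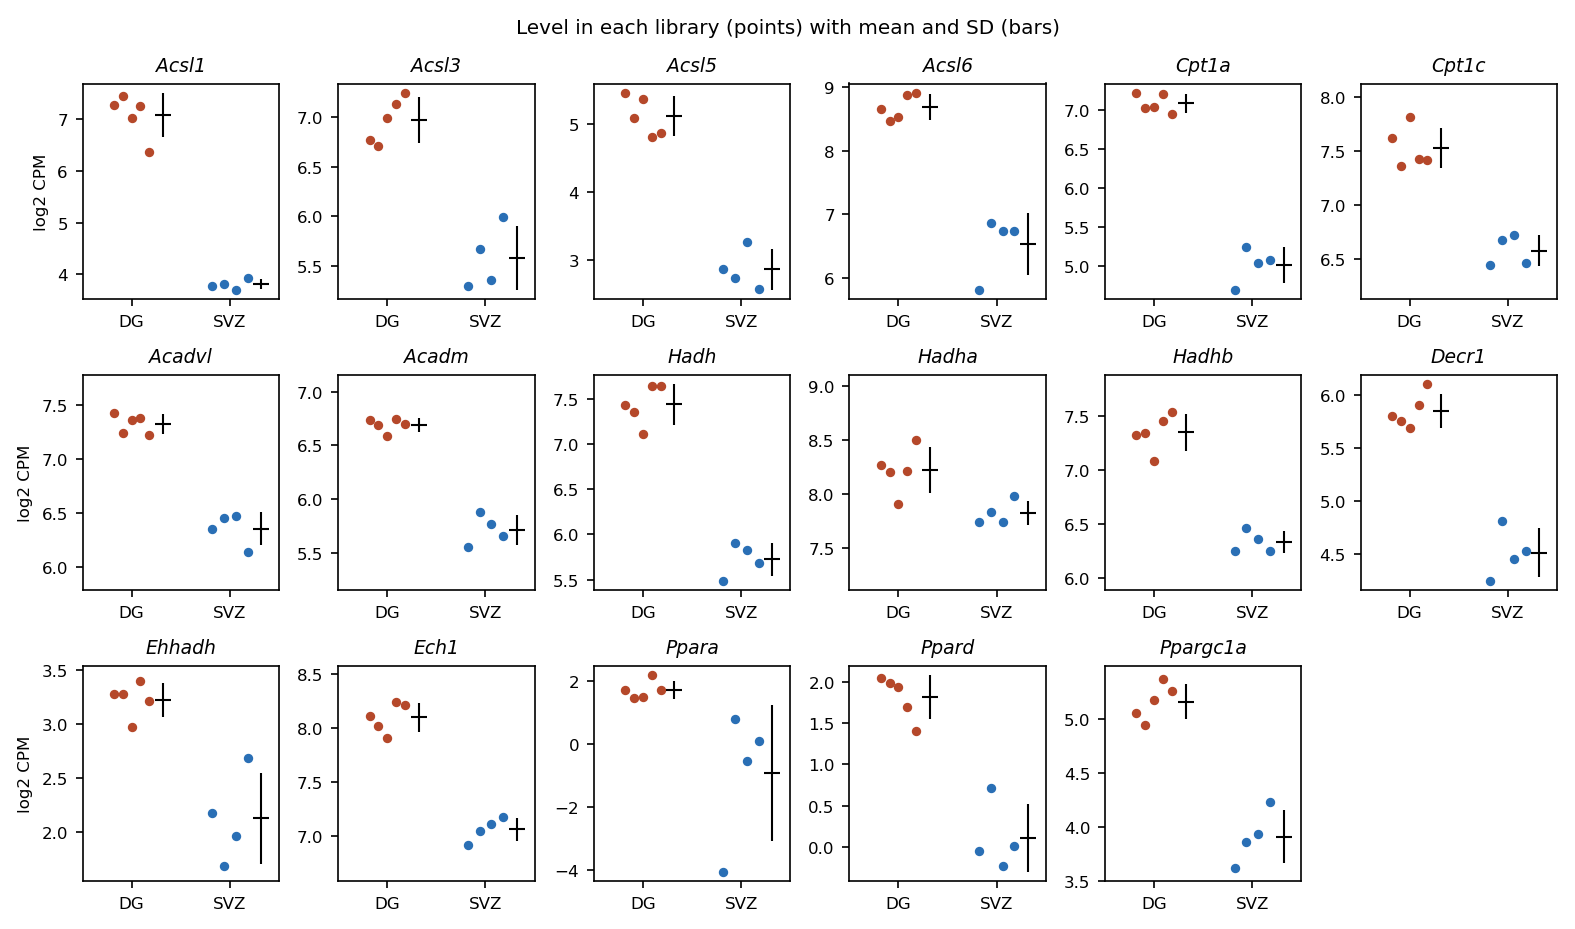
Log2 CPM of 17 enzymes, receptors and coactivators in each library (points; DG red, SVZ blue), with the mean and SD of each region as black bars; y axes differ between panels. DG points lie above all SVZ points except for Hadha, where DG 3 (7.91) lies below SVZ 4 (7.98), and SVZ 1 is the lowest library for Ppara (-4.05) and Acsl6 (5.82).

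The first step inside the mitochondrion is run by a family of acyl-CoA dehydrogenases that differ in chain length. Including the electron transfer flavoproteins that take up their electrons, 10 of 13 genes were higher in DG and 3 did not pass, with a median of 0.82. For long chains, Acadvl (chromosome 11, 70010183 to 70015411, minus strand), the enzyme of the inner membrane, had 7.43, 7.24, 7.36, 7.39 and 7.23 log2 CPM in DG 1 to DG 5, against 6.36, 6.46, 6.47 and 6.14 log2 CPM in SVZ 1 to SVZ 4. The DG libraries were all above the SVZ libraries (log2 fold change 0.97, SE 0.10, adjusted p = 5.29e-06). Dvl2, on the opposite strand, shares 42.9% of the exon bases annotated for Acadvl, and the library kit does not mark strand. Dvl2 itself differed by -0.95 and averaged 1.99 log2 CPM in DG and 2.94 log2 CPM in SVZ. Acadl, the other long-chain enzyme, differed by 1.05 (adjusted p = 0.000851).

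Acadm, for medium chains, had 6.74, 6.69, 6.59, 6.75 and 6.70 log2 CPM in DG 1 to DG 5, against 5.56, 5.88, 5.78 and 5.66 log2 CPM in SVZ 1 to SVZ 4. The DG libraries lay close together, with an SD of 0.06, and above every SVZ library (log2 fold change 0.97, SE 0.09, adjusted p = 4.11e-06). Acads, for short chains, averaged 4.71 ± 0.36 in DG and 4.27 ± 0.38 log2 CPM in SVZ and did not pass (0.44, SE 0.22, adjusted p = 0.0975); without DG 3 its adjusted p was 0.0328 (0.0328 to 0.281 over the alternatives). The branched-chain enzymes of amino acid breakdown, Acadsb and Acad8, were higher by 0.69 and 0.70. Acadsb had 7.70, 7.70, 7.60, 7.75 and 7.60 log2 CPM in DG 1 to DG 5, against 7.00, 7.02, 6.97 and 6.94 log2 CPM in SVZ 1 to SVZ 4. Both regions were narrow and did not overlap (log2 fold change 0.69, SE 0.07, adjusted p = 9.51e-06).

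The 3 atypical members Acad10, Acad11 and Acad12 each exceeded 2-fold. Acad11, which acts on long hydroxy acids and lies partly in peroxisomes, had 5.30, 4.99, 5.06, 5.46 and 5.55 log2 CPM in DG 1 to DG 5, against 3.88, 4.20, 4.28 and 4.12 log2 CPM in SVZ 1 to SVZ 4. All DG libraries were above all SVZ libraries (log2 fold change 1.15, SE 0.15, adjusted p = 4.09e-05). Acad12 had 4.12, 3.88, 3.90, 4.57 and 4.14 log2 CPM in DG 1 to DG 5, against 2.41, 1.99, 2.32 and 2.21 log2 CPM in SVZ 1 to SVZ 4. The regions lay further apart than for Acad11 (log2 fold change 1.89, SE 0.18, adjusted p = 3.99e-06). The neighbouring Acad10, with 2.65 to 3.25 log2 CPM in DG and 1.40 to 2.61 log2 CPM in SVZ, differed by 1.14 (adjusted p = 0.00218). Acad10 and Acad12 are close copies side by side on chromosome 5, and how the authors' counting divided reads between them is not given. Acad9, known mainly as an assembly factor of respiratory complex I, did not pass (0.02, SE 0.30, adjusted p = 0.949), and DG 5 (4.18) and SVZ 4 (4.72) were its lowest libraries, against 5.39 to 5.80 in the others.

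Electrons leave these enzymes through a flavoprotein of an alpha and a beta subunit. Etfb and the dehydrogenase Etfdh that passes the electrons on to ubiquinone were higher in DG by 0.82 and 0.53 (adjusted p = 0.00132 and 0.000286), whereas Etfa, at 6.97 ± 0.11 in DG and 6.71 ± 0.21 log2 CPM in SVZ, did not pass (0.26, adjusted p = 0.056). The call on Etfa rested on the setting: its adjusted p was 0.0339 without SVZ 2 and 0.0339 to 0.163 over the alternatives. The log2 ratio of Etfa to Etfb within a library was 2.06 to 2.67 in DG and 2.77 to 3.25 in SVZ, without overlap. Gm45233 on the same strand covers 53% of the exon bases of Etfb, so reads of the 2 cannot be told apart there.

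The later steps in the mitochondrion gave 6 of 8 genes higher in DG, with a median of 0.91. Hadh (chromosome 3, 131233419 to 131272101, minus strand), the dehydrogenase for medium and short hydroxyacyl chains, differed most, at 7.43, 7.35, 7.11, 7.64 and 7.64 log2 CPM in DG 1 to DG 5, against 5.49, 5.90, 5.82 and 5.68 log2 CPM in SVZ 1 to SVZ 4. It was 3.28-fold higher in DG, with the regions well apart (log2 fold change 1.71, SE 0.13, adjusted p = 8.48e-07). Decr1, a reductase needed for unsaturated chains, had 5.81, 5.76, 5.69, 5.91 and 6.11 log2 CPM in DG 1 to DG 5, against 4.25, 4.81, 4.46 and 4.53 log2 CPM in SVZ 1 to SVZ 4. Here too every DG library was above every SVZ library (log2 fold change 1.34, SE 0.13, adjusted p = 6.01e-06). Acaa2, the thiolase, and Eci1, an isomerase for unsaturated chains, were higher by 1.03 and 0.81. Echs1, the hydratase for short chains, and Hsd17b10, a dehydrogenase that is also part of mitochondrial RNase P, did not pass (0.12 and 0.03, adjusted p = 0.326 and 0.832).

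Hadha and Hadhb encode the alpha and beta subunits of the mitochondrial trifunctional protein, which carries out the later steps for long chains, and the genes lie head to head on chromosome 5. Their RefSeq start sites (GRCm38.p6) are at 30154980 on the minus strand for Hadha and 30155253 on the plus strand for Hadhb, with 272 bases between them. The window of 250 bases before to 50 after the Hadhb start is shown because, from these RefSeq starts, the genes are transcribed away from each other. Capitals mark the 228 bases (30155003 to 30155230) that also lie in the equivalent Hadha window, and the window holds 24 CpG dinucleotides. In GENCODE M21 the Hadha span reaches 30155162 and the Hadhb span begins at 30155248. Part of the stretch in capitals thus lies inside the GENCODE span of Hadha.
Hadhb, chr5:30155003-30155302, plus strand: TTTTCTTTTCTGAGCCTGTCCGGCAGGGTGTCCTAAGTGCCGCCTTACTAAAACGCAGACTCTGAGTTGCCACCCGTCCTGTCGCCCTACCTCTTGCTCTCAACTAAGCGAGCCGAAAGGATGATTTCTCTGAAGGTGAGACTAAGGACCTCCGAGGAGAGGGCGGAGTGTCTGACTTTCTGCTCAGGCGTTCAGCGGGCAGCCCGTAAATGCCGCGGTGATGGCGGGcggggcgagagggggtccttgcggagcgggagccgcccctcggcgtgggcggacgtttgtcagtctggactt

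Hadha and Hadhb differed between the regions to unlike degrees. Hadha had 8.27, 8.20, 7.91, 8.22 and 8.50 log2 CPM in DG 1 to DG 5, against 7.74, 7.84, 7.74 and 7.98 log2 CPM in SVZ 1 to SVZ 4. DG 3 lay below SVZ 4, and the difference was 1.32-fold (log2 fold change 0.40, SE 0.11, adjusted p = 0.00942). Hadhb had 7.32, 7.34, 7.08, 7.45 and 7.54 log2 CPM in DG 1 to DG 5, against 6.25, 6.46, 6.36 and 6.25 log2 CPM in SVZ 1 to SVZ 4, without overlap and 2.03-fold higher in DG (log2 fold change 1.02, SE 0.10, adjusted p = 7.27e-06). The log2 ratio of Hadha to Hadhb was 0.77 to 0.97 in DG libraries and 1.38 to 1.73 in SVZ libraries, so every DG library had the lower ratio. Exons of Garem2, on the other strand, cover 0.9% of those of Hadha. Isoforms were not separated here.

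**Figure D4:**
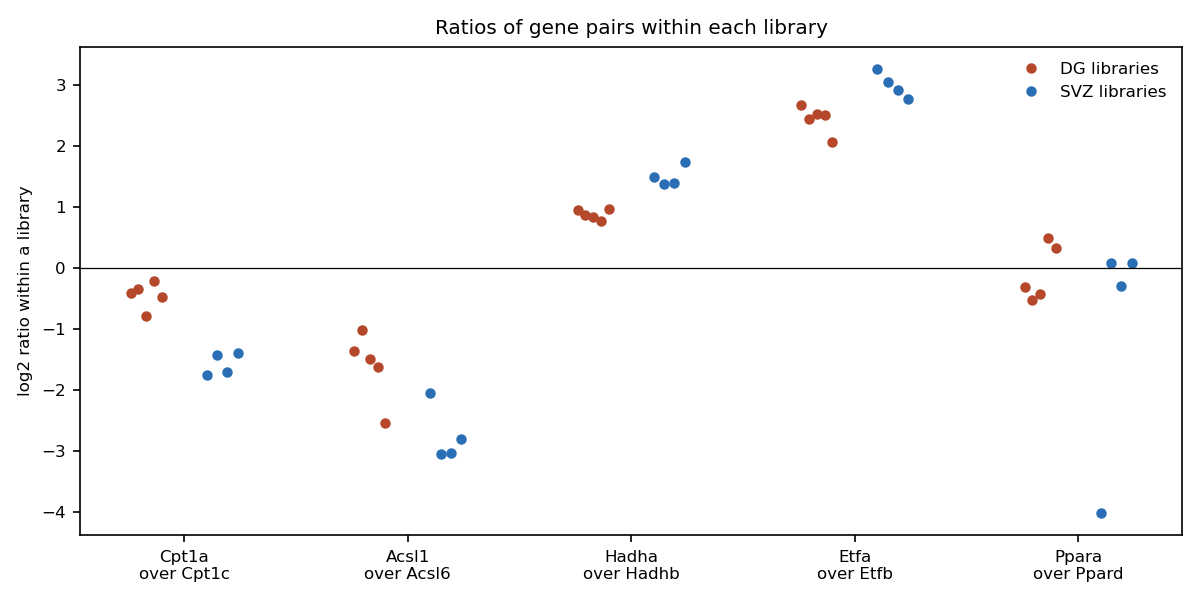
Log2 ratio of the levels of 2 genes within each library, for 5 pairs (DG red, left of each pair; SVZ blue, right). The regions separate for Cpt1a over Cpt1c (DG above), and for Hadha over Hadhb and Etfa over Etfb (DG below), and overlap for the other two pairs.

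In the peroxisome, 6 of 8 enzymes were higher in DG, 1 was lower and 1 did not pass, with a median of 0.69. Acox3, an oxidase for branched chains, differed by 0.43. For the steps that follow, Hsd17b4, the main bifunctional enzyme, was higher by 0.74, and Ehhadh, the other bifunctional enzyme and a well-known PPAR target of liver, had 3.27, 3.27, 2.97, 3.40 and 3.21 log2 CPM in DG 1 to DG 5, against 2.17, 1.68, 1.96 and 2.68 log2 CPM in SVZ 1 to SVZ 4. SVZ 4 came nearest to the DG libraries without reaching them (log2 fold change 1.10, SE 0.21, adjusted p = 0.000779). Acaa1a, the thiolase, was at 2.74 ± 0.21 in DG and 2.71 ± 0.33 log2 CPM in SVZ and did not pass (0.04, adjusted p = 0.881). Exons of Myd88 on the other strand, which was higher in DG by 1.95, share 6.6% of those of Acaa1a.

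Auxiliary enzymes for unsaturated chains did not move alike. Ech1 (chromosome 7, 28825217 to 28832247, plus strand), a dienoyl-CoA isomerase, had 8.12, 8.02, 7.91, 8.24 and 8.21 log2 CPM in DG 1 to DG 5, against 6.92, 7.05, 7.11 and 7.17 log2 CPM in SVZ 1 to SVZ 4. It was higher in every DG library (log2 fold change 1.04, SE 0.09, adjusted p = 2.98e-06), and the reductase Decr2 was higher by 0.63. Eci2, an isomerase of peroxisomes and mitochondria, was the 1 enzyme of all 38 that was lower in DG, with 6.87, 7.04, 6.60, 6.94 and 7.09 log2 CPM in DG 1 to DG 5, against 7.15, 7.23, 7.19 and 7.32 log2 CPM in SVZ 1 to SVZ 4. The DG libraries lay below all SVZ libraries by a small margin (log2 fold change -0.31, SE 0.11, adjusted p = 0.0225), and without SVZ 4 its adjusted p was 0.0557 (0.0121 to 0.0557 over the alternatives).

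Levels were set side by side between genes per kilobase of exon annotated over all isoforms. That length can exceed the transcripts present, which were not separated, so the order holds for this scale only. Among the highest in DG were Ech1 (120.7 ± 11.3 CPM per kilobase, SD, n = 5), Pex19 (100.8 ± 5.21), Hsd17b4 (78.9 ± 5.92) and Hsd17b10 (76.0 ± 15.7), and Hsd17b4 and Hsd17b10 did not differ beyond their spread. In SVZ the order was Pex19 (117.7 ± 7.38, SD, n = 4), Hsd17b10 (73.0 ± 1.74), Ech1 (58.8 ± 4.31), Etfa (57.4 ± 7.90) and Hsd17b4 (47.2 ± 5.21), with Ech1 and Etfa within their spread. Acsl6 was 10th among the 59 in DG (41.8 ± 5.76) and 28th in SVZ (9.73 ± 2.73).

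Peroxins assemble the organelle by importing its enzymes and membrane proteins and by dividing it. Of the 17 measured, 5 were higher in DG (29.4%), 2 were lower (11.8%) and 10 did not pass, so both shares lay below those of all genes (32.9% and 33.7%). The import receptor Pex5, which binds most matrix enzymes by their C-terminal signal, had 5.54, 5.21, 5.20, 5.09 and 4.41 log2 CPM in DG 1 to DG 5, against 5.27, 5.72, 5.51 and 4.71 log2 CPM in SVZ 1 to SVZ 4. Pex14, the docking protein on the membrane, had 4.38, 4.13, 4.32, 4.15 and 3.98 log2 CPM in DG 1 to DG 5, against 3.74, 4.26, 4.16 and 3.03 log2 CPM in SVZ 1 to SVZ 4. Pex5 did not pass (log2 fold change -0.21, SE 0.24, adjusted p = 0.453), nor did Pex14 (log2 fold change 0.39, SE 0.23, adjusted p = 0.152). For both genes the regions overlapped, with SVZ 4 the lowest SVZ library and DG 5 the lowest DG library. Exons of Gm17029 on the other strand share 28.3% of those of Pex14. Pex13, the other docking protein, and Pex7, the receptor for enzymes with an N-terminal signal, did not pass either (0.03 and 0.60, adjusted p = 0.936 and 0.0663), though without SVZ 1 the adjusted p of Pex7 was 0.017 (0.017 to 0.18 over the alternatives). Pex7 had few reads, 64 to 94 per DG library and 33 to 71 per SVZ library.

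Receptors are recycled by a ubiquitin ligase of RING proteins and by AAA ATPases with their membrane anchor. In the ligase, Pex2 was higher in DG, with 6.98, 7.02, 6.76, 6.96 and 7.15 log2 CPM in DG 1 to DG 5, against 6.26, 6.53, 6.42 and 6.40 log2 CPM in SVZ 1 to SVZ 4. Its regions did not overlap (log2 fold change 0.57, SE 0.10, adjusted p = 0.000346), whereas Pex10 did not pass (0.56, adjusted p = 0.127). SVZ 4, at 2.55 log2 CPM, was the lowest library for Pex10, against 3.93 to 4.48 log2 CPM in DG and 3.95 to 4.25 log2 CPM in the other SVZ libraries. Pex26, the anchor, was lower in DG, with 3.05, 2.79, 2.91, 2.79 and 2.77 log2 CPM in DG 1 to DG 5, against 3.38, 3.34, 3.60 and 3.25 log2 CPM in SVZ 1 to SVZ 4. All DG libraries were below all SVZ libraries (log2 fold change -0.53, SE 0.14, adjusted p = 0.00733). The ATPase Pex6 did not pass (-0.25, adjusted p = 0.228).

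Pex3, Pex16 and Pex19 insert the membrane proteins. Pex19, the cytosolic chaperone and the peroxin with the highest level per kilobase, had 8.50, 8.66, 8.55, 8.54 and 8.67 log2 CPM in DG 1 to DG 5, against 8.88, 8.84, 8.85 and 8.67 log2 CPM in SVZ 1 to SVZ 4, a difference of -0.22 (SE 0.08, adjusted p = 0.0243). The highest DG library and the lowest SVZ library nearly met, without overlap. Without any of DG 1, DG 4, SVZ 1, SVZ 2 or SVZ 3 the adjusted p was 0.0566 to 0.0702. Pex16 was higher by 0.27 (adjusted p = 0.0354), with 6 of the 9 fits that left out 1 library not passing (all but those without DG 2, DG 4 or SVZ 2; up to 0.0897), and Pex3 did not pass (0.20, adjusted p = 0.211). Of the division factors described here, Pex11a, which responds to PPAR activators in liver, had 4.38, 4.37, 4.39, 4.59 and 4.61 log2 CPM in DG 1 to DG 5, against 4.17, 3.88, 3.92 and 4.11 log2 CPM in SVZ 1 to SVZ 4. The lowest DG libraries, DG 1 and DG 2, were above SVZ 1, the highest of its region (log2 fold change 0.45, SE 0.12, adjusted p = 0.00663). Pex11g did not pass (-0.24, adjusted p = 0.13), and exons of Gm44775 on the other strand share 41.1% of those of Pex11g. Pex5l, a relative of Pex5 known in neurons as a subunit of HCN channels, was higher by 1.38 at low levels, 83 to 142 reads per DG library and 24 to 67 reads per SVZ library (adjusted p = 0.00392).

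**Figure D5:**
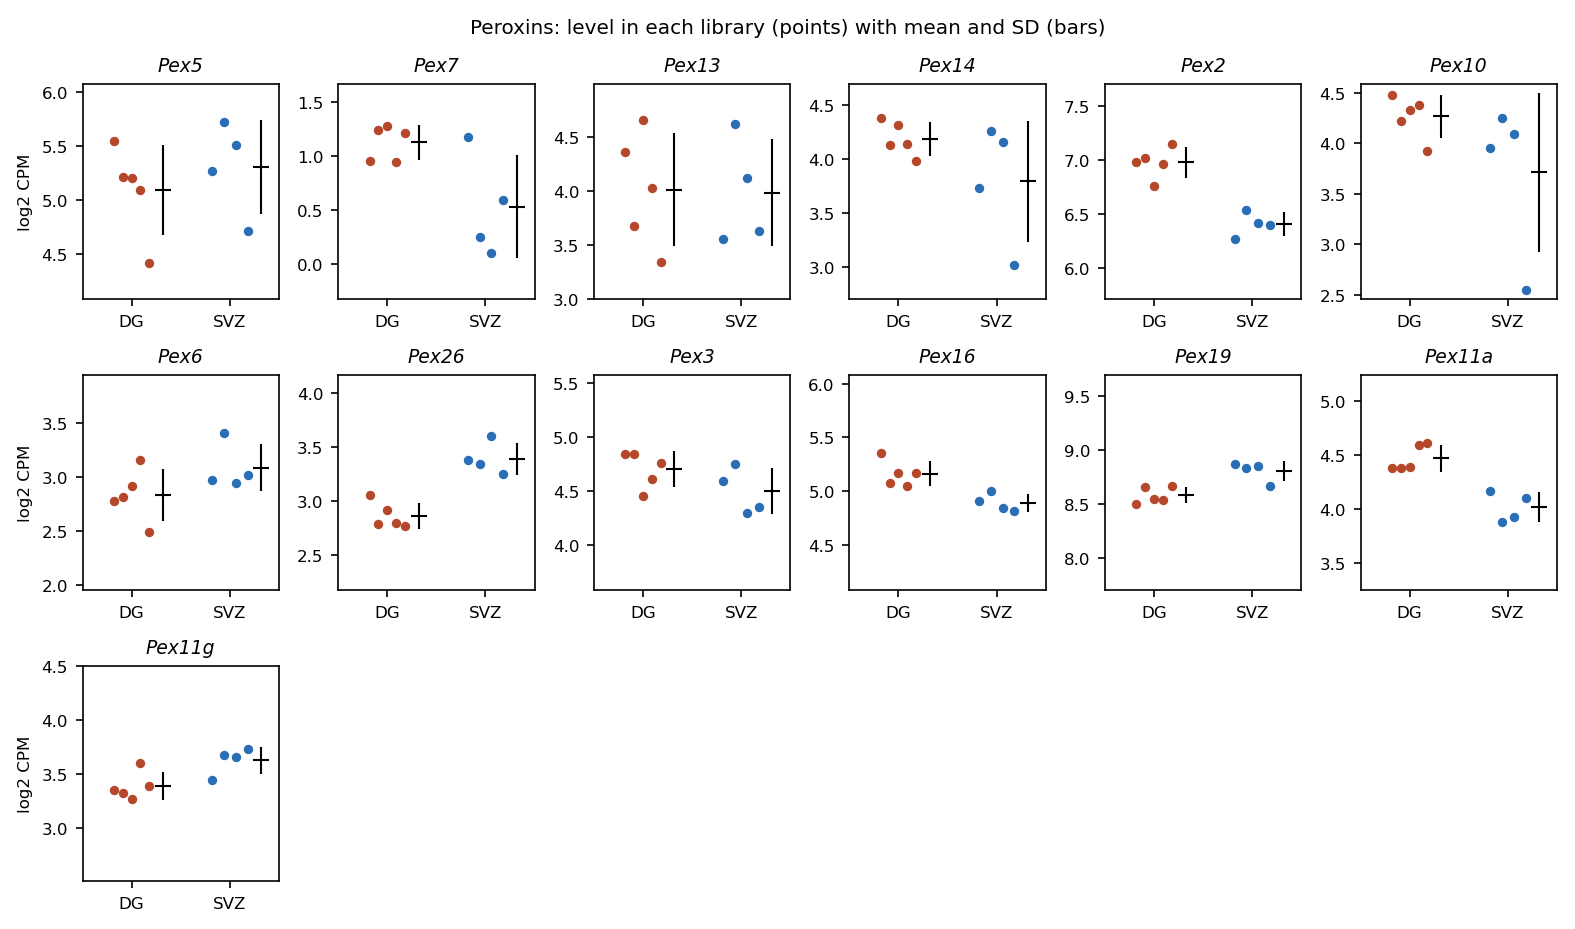
Log2 CPM of 13 peroxins in each library (points; DG red, SVZ blue), with the mean and SD of each region as black bars; y axes differ between panels. Regions overlap in most panels, DG lies above SVZ for Pex2, Pex16 and Pex11a and below it for Pex26 and, narrowly, Pex19, and SVZ 4 is the lowest library for Pex10 and Pex14.

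Of the PPAR receptors and coactivators, 4 were measured. Ppara, Ppard and Ppargc1b had low read counts and are in the table only through their DG libraries, as those alone exceeded 1 CPM in at least 3, so their direction was in part fixed by that filter. Ppargc1a passed it in both regions. Ppara (chromosome 15, 85734983 to 85802819, plus strand), the receptor that drives fat oxidation in liver, had 1.74, 1.46, 1.51, 2.19 and 1.74 log2 CPM in DG 1 to DG 5, against -4.05, 0.79, -0.53 and 0.10 log2 CPM in SVZ 1 to SVZ 4, which is 98 to 165 reads per DG library and 1, 53, 21 and 34 reads in SVZ 1 to SVZ 4. The difference was 2.65 (SE 0.79, adjusted p = 0.0116), and SVZ 1 decided its size: without it the value was 1.60 (adjusted p = 0.00175). Ppard, the more widely expressed receptor, had 2.05, 1.98, 1.94, 1.70 and 1.41 log2 CPM in DG 1 to DG 5, against -0.04, 0.71, -0.23 and 0.02 log2 CPM in SVZ 1 to SVZ 4, which is 108 to 141 reads per DG library and 26 to 50 reads per SVZ library. The regions did not overlap (log2 fold change 1.70, SE 0.26, adjusted p = 0.000153). Between the receptors, the log2 ratio of Ppara to Ppard overlapped between the regions (-0.52 to 0.49 in DG and -4.01 to 0.09 in SVZ).

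Ppargc1a (chromosome 5, 51454250 to 51567726, minus strand), a coactivator of mitochondrial biogenesis, had 5.06, 4.95, 5.18, 5.37 and 5.26 log2 CPM in DG 1 to DG 5, against 3.62, 3.86, 3.94 and 4.23 log2 CPM in SVZ 1 to SVZ 4. Every DG library was above every SVZ library (log2 fold change 1.25, SE 0.14, adjusted p = 1.85e-05). Ppargc1b, its relative, described here after its values were seen, had the largest log2 fold change of all 59 genes, 4.46 (SE 0.67, adjusted p = 0.000138), on 145 to 408 reads per DG library and 4, 15, 46 and 3 reads in SVZ 1 to SVZ 4; without SVZ 3 it was 5.16. Pex5l, too, reached 1 CPM in 3 libraries through DG alone, and the other 55 genes reached it in SVZ as well.

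Promoter windows of 250 bases before to 50 after a RefSeq start site were matched for 46 of the 59 genes (52 windows). The PPAR response element searched (AGGNCA, any base, and AGGNCA again, on either strand) was in none of these windows and in 0.381% of all 32851 windows. The NRF1 element, a palindrome spelled by the capitals of the first 4 sequences shown with this paragraph, was in 4 windows (7.69%), against 0.971% of all windows, and the estrogen-related receptor element TCAAGGTCA, on either strand, was in 1 (1.92%), against 0.423%. The 5 matches are shown, with the motif in capitals and 15 bases on each side, because they belong to genes described above, the first 4 with the NRF1 element and the last with the other element on its minus strand. The Acad10 and Acad12 windows are alike in 33 of 40 bases.
Acad10, chr5:121660494-121660533, minus strand: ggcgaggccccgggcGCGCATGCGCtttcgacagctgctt
Acad12, chr5:121618958-121618997, minus strand: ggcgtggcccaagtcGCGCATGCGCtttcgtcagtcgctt
Etfdh, chr3:79628871-79628910, minus strand: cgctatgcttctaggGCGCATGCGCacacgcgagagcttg
Ppara, chr15:85735730-85735769, plus strand: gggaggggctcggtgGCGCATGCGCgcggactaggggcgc
Acsl6, chr11:54303642-54303680, plus strand: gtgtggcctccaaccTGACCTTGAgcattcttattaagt

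Of these 5 genes, Etfdh differed by 0.53 and Acsl6 by 2.15, and Ppara by 2.65, or 1.60 without SVZ 1. Nrf1, the gene of the factor that binds the first element, was lower in DG (log2 fold change -0.76), at 6.61 ± 0.15 in DG and 7.37 ± 0.15 log2 CPM in SVZ (adjusted p = 7.16e-05). A match is a description of the letters in a window and not of binding, and the windows without a match say nothing of the factors.

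Partner genes of the same pathways were followed with lists made by function. Of 24 measured mitochondrial partners, 16 were higher in DG and 4 lower (median 0.68), against 32.9% higher and 33.7% lower over all genes. Slc25a20, the carrier of acylcarnitines through the inner membrane, was higher by 0.84, Pcca, which carboxylates propionyl-CoA, by 1.35 and Acsf2, a synthetase for medium chains, by 2.57 (adjusted p = 0.00126, 1.05e-06 and 1.04e-06). Acat1, a thiolase of ketone and isoleucine metabolism, and Acot1, a thioesterase, were lower (-0.46 and -0.75).

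Of 36 other peroxisomal enzymes and transporters, 25 were higher in DG and 3 lower (median 0.67), against 32.9% higher and 33.7% lower over all genes. Abcd4, a relative of the peroxisomal transporters that acts in lysosomes, was higher by 1.73 and Hacl1, a lyase of alpha-oxidation, by 1.53, and the transporters Abcd2 and Abcd3, which carry acyl-CoA into peroxisomes, by 0.52 and 0.75. Catalase (Cat), which breaks down the hydrogen peroxide of the oxidases, was higher by 0.39 (adjusted p = 0.0086). Pipox, an oxidase of pipecolic acid, and Idh1, a dehydrogenase that makes NADPH, were lower (-2.48 and -0.70).

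Of 18 PPAR partners and target genes, 5 were higher in DG, 6 lower and 7 did not pass (median 0.03), against 32.9% higher and 33.7% lower over all genes. Ucp2, an uncoupling protein, and Angptl4, a lipase inhibitor that endothelial cells and astrocytes also express, were higher by 2.32 and 2.85, and besides Nrf1 the corepressor gene Ncor1 was lower (-0.79). Classical targets were among those that did not pass, as Pdk4, which blocks pyruvate oxidation (-0.16, adjusted p = 0.4), and Plin2, a coat protein of lipid droplets (-0.06, adjusted p = 0.461).

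Among libraries of 1 region these genes varied less than the table as a whole, with a median SD of 0.19 in DG and 0.18 in SVZ against 0.25 and 0.26 over all genes. SVZ 1 was the lowest SVZ library in 25 of the 59 genes (42.4%, against 24.8% of all genes) and SVZ 2 the highest in 30 (50.8%, against 24.6%). The summed astrocyte markers were also lowest in SVZ 1 (1931 CPM) and highest in SVZ 2 (3623 CPM), as were the oligodendrocyte markers (1311 and 2525 CPM), while the neuroblast markers were highest in SVZ 1 (25917 CPM) and lowest in SVZ 2 (21892 CPM). The part of these in the order of the genes was not tested. In DG, DG 3 was the lowest library in 20 genes (33.9%, against 24.6%), and DG 2, whose astrocyte sum was the lowest of its region (17007 CPM), was the highest in 3 (5.1%, against 21.6%). The astrocyte sum of DG 3 (20516 CPM) was in the middle of its region.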

How the data were processed

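RNA of sorted cells was reverse transcribed from an oligo-dT primer with template switching, amplified and sheared, per the labels' protocols; the kit does not mark strand and adds no molecular identifiers. The authors used STAR, edgeR and the build mm10, per the submitters' processing notes; the sources used here give no versions, counting settings or annotation. The deposited values are log2 CPM, made by the authors with a prior of 1 read scaled to the library: undoing that gave whole reads for 100% of values (tolerance 0.001). Every one of the 14477 genes exceeded 1 CPM in at least 3 libraries. Symbols were found for 14433 IDs and not for 44.

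DG was compared with SVZ in limma (version 3.58.1, in R 4.3.3), fitted with no covariates and a trend of variance on mean level to the deposited log2 CPM of all 9 libraries. P-values were Benjamini-Hochberg adjusted over all genes, with a threshold of 0.05. The fit was tested on simulated data. Recovered reads served for CPM per kilobase, other scalings and voom. Library totals bound the counting error only. Coordinates are GENCODE M21 gene spans on GRCm38 (mm10), and promoter sequences are from RefSeq (GRCm38.p6). The genes and lists were chosen with earlier results of these data known. Values in every library are given for 27 genes: per role the 2 largest called changes in each direction among genes averaging 1 log2 CPM or more, the gene with the highest mean, and a fixed set of main enzymes and receptors. From each pathway list up to 2 genes per direction with the smallest adjusted p are named by rule; Slc25a20, Abcd2, Abcd3, Cat, Pdk4 and Plin2 were added after their values were seen. Single values of some genes are not reported here, though these genes are in the counts and medians. Same-numbered libraries were not treated as pairs in the main fit, and the replicate number was used only in an alternative fit. The alternatives were other scaling, prior, filter, trend, weights and left-out libraries.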

Additional observations from a re-analysis of the deposited data

Results flagged for a closer look

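In 6 of the 118 combinations of gene and region, 1 library stood apart by Dixon's test at 95%; chance flags about 1 in 20, or 5.9 of 118. Acsl6 had 5.82 log2 CPM in SVZ 1, against 6.74 to 6.86 in the other SVZ libraries. Acaa2, the mitochondrial thiolase, had 5.17 in SVZ 1, against 5.87 to 5.93 in the others of its region. Acads had 3.70 log2 CPM in SVZ 4 and 4.41 to 4.50 in the rest of SVZ. The complex I assembly factor Acad9 had 4.18 in DG 5, against 5.44 to 5.80 in the other DG libraries. Etfdh had 6.65 in DG 3 and 6.80 to 6.82 elsewhere in DG. The ATPase Pex6 had 3.41 in SVZ 2, which lay above the 2.94 to 3.01 of the other SVZ libraries.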

How the results depend on the processing

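The 39 genes called higher and 3 called lower were 37 to 40 and 2 to 3 in the alternatives that tested all 59 genes (scaling, prior, trend, voom weights, left-out libraries); among the 50 genes averaging 3 log2 CPM or more they were 33 and 3. Without DG 2, DG 3 and SVZ 1 together, an alternative chosen after seeing the data, 37 were higher and 0 lower by limma, with 2 lower at an unadjusted p under 0.05. No gene called in the main comparison changed sign. Same-numbered libraries did not deviate together (correlations -0.173 to 0.007, and 0 of 8 libraries matched its own number best). That cannot decide whether they share an animal or a session, which the labels do not say. With the replicate block 37 were higher and 3 lower, and DG 5 had no partner. Calls lost in some alternatives included those of Pex16, Pex19, Eci2 and Pex26, and calls gained included those of Etfa, Acads and Pex7. Signs turned only among genes that were not called. When 1 library was left out, log2 fold changes ran from -0.067 to 0.12 for Hsd17b10, -0.17 to 0.30 for Acad9, -0.046 to 0.20 for Acaa1a, -0.13 to 0.17 for Acsl4 and -0.13 to 0.24 for Pex13. With the replicate block Hsd17b10 was at -0.067, and without DG 2, DG 3 and SVZ 1 Acad9 was at -0.041, Acaa1a at -0.10, Acsl4 at -0.14 and Pex13 at -0.22. The cause was not tested. Median-of-ratios scaling moved the median over all genes from -0.075 to -0.039. Depth limits Ppara, Ppard, Ppargc1b and Pex5l, with under 70 reads in each SVZ library, and Pex7, with 33 to 71.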

Other observations

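By count, genes that bring fatty acids in, and those that make them, were also more often higher than lower in DG. Of 11 measured genes of fatty acid uptake and binding, 6 were higher and 1 lower (median log2 fold change 0.92), against 32.9% higher and 33.7% lower over all genes. Cd36 and Fabp3, which are among the 6, are in the table only through DG libraries, which in part fixes their direction. Mfsd2a, the transporter of docosahexaenoic acid at the blood-brain barrier, was higher by 3.95 and Fabp7, the binding protein of radial glia and astrocytes, by 2.10 (adjusted p = 4.45e-08 and 1.09e-06, limma), while Fabp5 was lower (log2 fold change -0.68, adjusted p = 0.00814). The endothelial and astrocyte marker sums were higher in DG in every library, and their part in these values was not tested.

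Of 23 measured genes of fatty acid synthesis, 17 were higher in DG and 4 lower (median 0.89), against 32.9% higher and 33.7% lower over all genes. Thrsp, a regulator of lipogenesis found in quiescent neural precursors, averaged 9.38 ± 0.32 in DG and 5.78 ± 0.07 log2 CPM in SVZ (SD, n = 5 and 4; log2 fold change 3.60, adjusted p = 1.91e-08), and the elongase Elovl5 was higher by 1.33 (adjusted p = 5.51e-07). The elongase Elovl2 and the carboxylase Acaca were lower (log2 fold changes -1.68 and -0.61, adjusted p = 1.73e-07 and 0.00259). So were Acly and Fasn, named after their values were seen (-0.27 and -0.42, adjusted p = 0.00806 and 0.0206, limma). The other acetyl-CoA carboxylase, Acacb, was higher (log2 fold change 2.30, adjusted p = 4.17e-05), and was named after its values were seen. By count, oxidation and synthesis genes were thus both mostly higher in the same DG libraries, though Acly, Acaca and Fasn were lower.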
